A study of Rattus norvegicus with 18 samples.

Results

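Of the 55335 rows of the kidney count table, 93 stood at 5 CPM (a row's count divided by the library's total count, times 1000000) or more in control library 5 (Ctrl5) and above 10 times the level of each of the other 17 libraries. These 93 identifiers are described here. They were selected on their level in Ctrl5 against every other library, so their height in Ctrl5 is a description of that choice and not a result. One of them, ENSMUSG00000029368, is paired with a gene symbol by the sources used here, Alb, the gene of serum albumin. The other 92 carry mouse Ensembl identifiers for which no symbol was at hand, and they are given below by count, level and identifier.

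Polyadenylated RNA of kidney was sequenced in 18 libraries from animals labelled as rats, 6 animals in each of 3 groups. Ctrl animals had ordinary feed and solvent by gavage. DN animals, a model of diabetic nephropathy, were given a high-fat diet and an injection of STZ. Treat animals were model animals that also received TSK by mouth at 500 mg/kg per day for 4 weeks. The labels give no age, sex or strain, and what TSK stands for is not spelled out in them. Libraries held 22040987 to 35275498 counts, and Ctrl5 held 28926517. The submitters' processing notes name mouse builds, GRCm38 and mm10, although the labelled organism is rat, so levels of different genes are not compared here as amounts of RNA.

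Albumin is the most abundant protein of blood plasma. It is made and secreted by hepatocytes, and its messenger RNA is a standard marker of liver tissue. In the kidney, albumin protein that passes the glomerular filter is taken up by proximal tubule cells through megalin and cubilin. Albumin in urine is the classic sign of diabetic nephropathy. Bulk RNA does not record which cells a transcript came from, and fewer cells of a type and less RNA per cell cannot be told apart in it.

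The working description of the set is albumin-type transcripts, and it could not be checked. The lists of liver, plasma protein, kidney and other tissue markers hold 595 symbols in 20 lists, of which 469 are in the rat gene table and 1, Alb, was paired with an identifier of the count table. That pair came with the rule that defines the set, so its being a member was given in advance and is no check. Which tissue the remaining 92 mark, and whether the libraries hold the defining markers of kidney, was therefore not tested, and the set is called by its rule.

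In Ctrl5 the 93 identifiers together held 289807 of 28926517 counts, a share of 1.002% (exact Clopper-Pearson 95% interval 0.9982% to 1.006%, which covers counting error only). Alb alone stood at 5895 CPM and made up 58.84% of their summed CPM. The second highest, ENSMUSG00000022868, stood at 286.2 CPM. From there the levels fell off steadily: 13 identifiers were at 100 CPM or more, 60 were from 10 to under 100 CPM and 20 were under 10 CPM, with a median of 25.75 CPM. The lowest was at 5.67 CPM and rested on 164 counts, so none of the levels in Ctrl5 was limited by depth.

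The summed CPM of the 93 identifiers was 10020 in Ctrl5 and 195.3 in Ctrl4. The other 4 controls held 41.92 (Ctrl1), 36.5 (Ctrl2), 36.63 (Ctrl3) and 48.12 (Ctrl6). In DN the lowest, median and highest of 6 libraries were 26.13, 31.14 and 34.17, and in Treat they were 24.34, 31.38 and 33.44. Ctrl4 thus stood above every library except Ctrl5, and the lowest of the controls stood above the highest DN and Treat library. The rule fixes only an upper limit for the other 17 libraries.

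**Figure D1:**
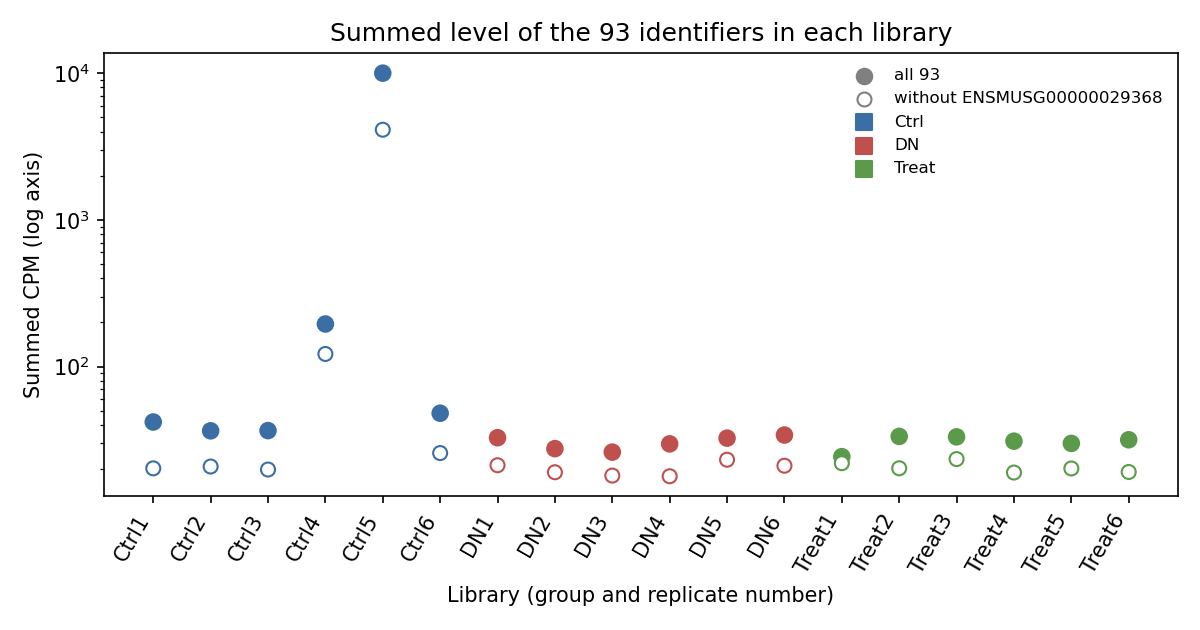
Summed CPM of the 93 identifiers (log axis) in each of the 18 libraries, by group and replicate number. Filled points include Alb and open points leave it out. Ctrl5 sits at 10020 and Ctrl4 at 195.3, and the other 16 libraries lie between 24.34 and 48.12.

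Group means of this sum followed those libraries. The control mean was 1730 ± 4061 CPM (SD, n = 6) against 30.49 ± 3.187 in DN (n = 6), a ratio of 56.72. Without Ctrl5 the control mean was 71.7 ± 69.27 (n = 5), 2.351 times the DN mean. Without Ctrl4 and Ctrl5 it was 40.79 ± 5.502 (n = 4), 1.338 times the DN mean. The Treat mean of 30.61 ± 3.34 (n = 6) was 1.004 times the DN mean, a difference smaller than the spread between libraries. With Alb set aside as well, the control mean without Ctrl4 and Ctrl5 was 21.68 ± 2.74 (n = 4) against 20.1 ± 2.101 in DN and 20.66 ± 1.726 in Treat (n = 6 each). The summed CPM of the 92 remaining identifiers thus differed between groups by less than its spread once both libraries were left out. It was 1.079 times the DN mean in those 4 controls and 35.92 times with all 6. The sum does not speak for single members, some of which were called higher and some lower without both libraries.

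Ctrl5 differed from the other libraries in how many rows the rule finds. With any other library in its place the same rule found 2 rows for DN2, 1 each for Ctrl1, Ctrl2, Ctrl4, Treat1 and Treat5, and 0 for the other 11. At lower and higher folds Ctrl5 had 146 rows over 2 times, 111 over 5 times and 65 over 20 times every other library. Ctrl4 had 76 rows over 2 times and 5 over 5 times, and Treat1 had 67 and 4. The remaining libraries had 0 to 9 rows over 2 times. Among the 91 members with a count in some other library, the ratio of Ctrl5 to the highest other library had a median of 29.42. The rule was set on Ctrl5 with earlier results of these data known, so its own counts and ratio describe that choice.

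At the edge of the rule the ratio of Ctrl5 to the highest other library went from 10.73 just inside to 8.902 just outside. The 3 members just inside had 15.69 CPM in Ctrl5 against 1.463 in the next library, 16.39 against 1.52, and 15.59 against 1.444, ratios of 10.73, 10.78 and 10.8. The 3 rows just outside had 94.1 against 10.57, 35.33 against 4.191, and 56.52 against 7.33, ratios of 8.902, 8.43 and 7.711. A further 53 rows at 5 CPM or more lay between 2 and 10 times every other library and summed to 2570 CPM in Ctrl5. By their ratio to the next library, the 93 identifiers are therefore the upper end of a longer run of rows that were highest in Ctrl5.

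**Figure D2:**
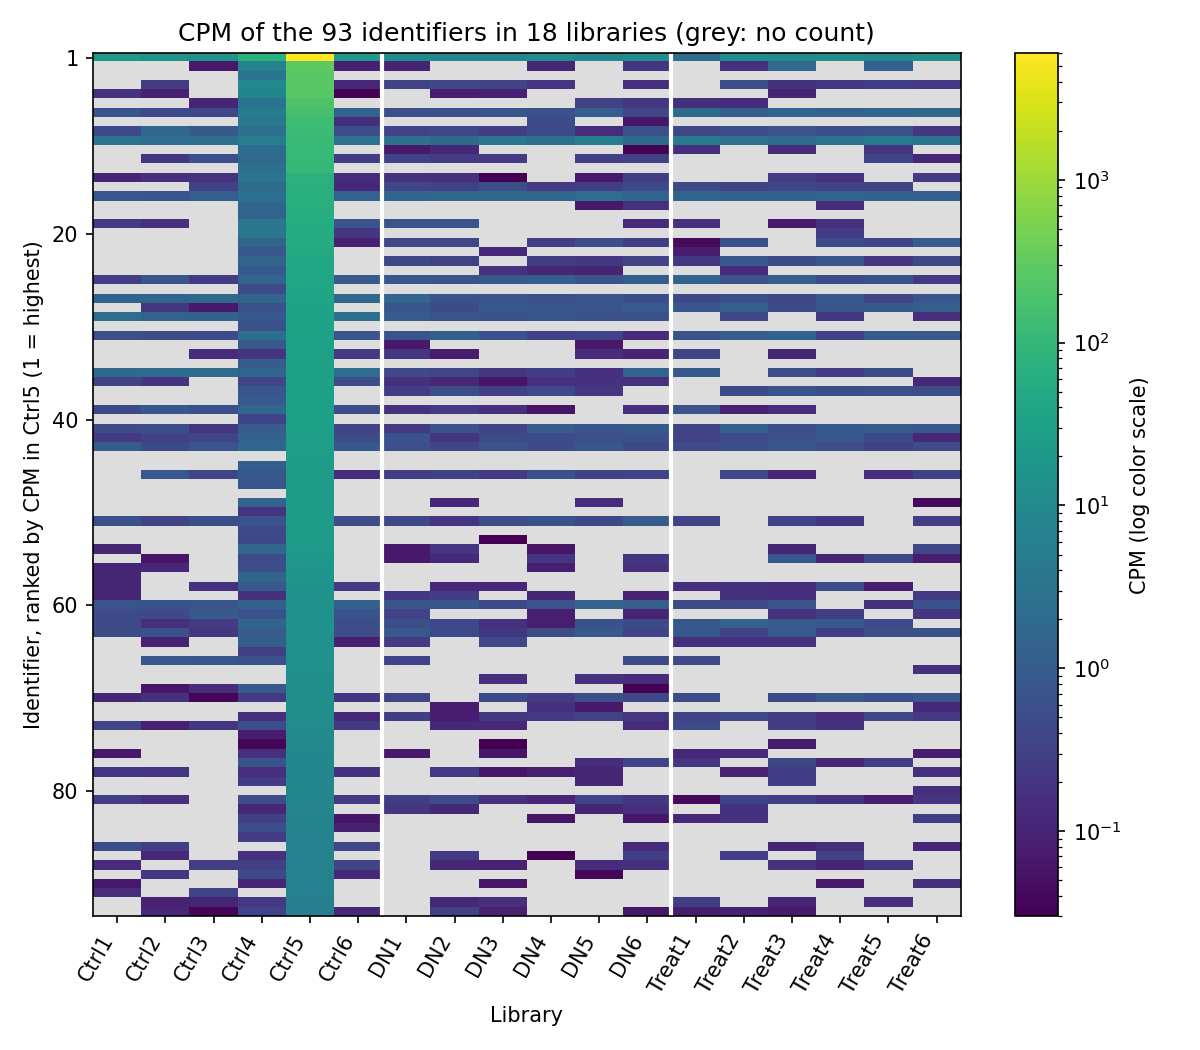
CPM (log color scale) of the 93 identifiers, ranked from the highest to the lowest in Ctrl5, in the 18 libraries. Grey cells have no count. The bright column is Ctrl5, Ctrl4 is the next fullest with 85 identifiers counted, and the other 16 libraries have counts for 33 to 52 of them.

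Many of the identifiers had few or no counts outside the control group's libraries 4 and 5. In the 16 libraries beside Ctrl4 and Ctrl5, 17 members had no count at all, 50 had counts in 1 to 11 libraries and 26 had counts in at least 12. Of the 17 without a count in those libraries, 15 had one in Ctrl4. A pair of members had no count in any library but Ctrl5, where they stood at 25.2 and 27.17 CPM (729 and 786 counts). Against the highest per-library floor of 3 counts, 0.136 CPM, both were at least 185.3-fold higher in Ctrl5, a bound that covers counting error only. At this depth a count of 0 allows a level of up to 0.085 to 0.136 CPM, depending on the library.

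Ctrl4 held counts of 85 of the 93 identifiers, at lower levels than Ctrl5. It was the highest library after Ctrl5 for 61 members, another library was for 30, and 2 had no count elsewhere. The level in Ctrl4 was 2.846% of that in Ctrl5 at the median over the 93, with 25th and 75th percentiles of 1.745% and 4.653% and a highest value of 9.277%. The rule caps this share through its fold of 10, so the upper end is set by the choice. Across the members the level in Ctrl4 rose with that in Ctrl5 (Spearman's rho 0.794 over 93 identifiers, a description across genes, which are not independent replicates). The same measure was 0.0803 (Ctrl1) to 0.359 (DN1) in the other 16 libraries, where many members are at 0. Whether the 2 control libraries share a source of these transcripts was not tested. The labels give no extraction, library or sequencing batch by which they could be grouped.

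**Figure D3:**
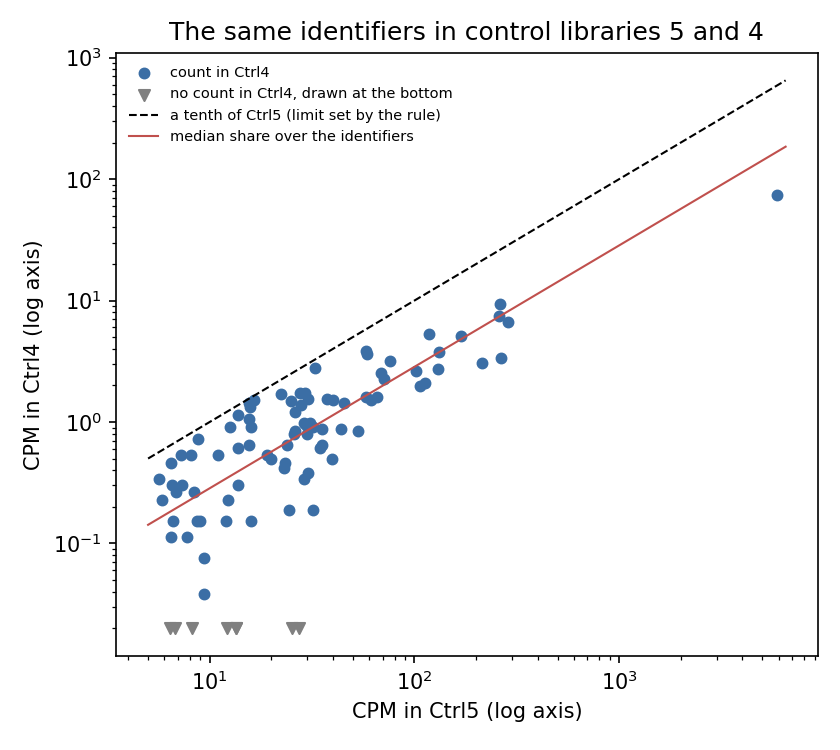
CPM in Ctrl4 against CPM in Ctrl5 for the 93 identifiers (both axes log). The dashed line is the limit set by the rule, and the solid line is the median share of 2.846%. The 85 points follow the solid line over the range of Ctrl5, and the triangles at the bottom are the 8 identifiers with no count in Ctrl4.

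ENSMUSG00000022868 had the highest level in Ctrl5 after Alb, and it had counts in 8 of the 16 libraries beside Ctrl4 and Ctrl5. It had 0 CPM in Ctrl1 and Ctrl2, 0.07038 in Ctrl3, 6.689 in Ctrl4, 286.2 in Ctrl5 and 0.08787 in Ctrl6. In DN its lowest, median and highest levels were 0, 0.05178 and 0.1902 CPM, and in Treat they were 0, 0.09074 and 1.919 CPM. The highest Treat values, 1.919 CPM in Treat3 and 1.319 CPM in Treat5, were the only ones above 1 CPM outside Ctrl4 and Ctrl5. The identifier was among the 66 members that did not pass the filter on low counts, so no fold change was fitted for it.

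Group comparisons were fitted on the whole table with edgeR's quasi-likelihood test, and p-values were adjusted by Benjamini-Hochberg over all genes tested. Genes with an adjusted p under 0.05 are called changed. Animals are the replicates, so the p-values measure the spread between 6 animals a group. Of the 93 members, 27 passed the filter that asks for enough counts in enough libraries, and 66 did not. DN versus Ctrl and Treat versus Ctrl share their 6 control libraries, so both carry Ctrl5.

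With all 18 libraries, DN versus Ctrl called 24 of the 27 tested members lower and 0 higher. Among all 19233 genes tested, 15.3% were called lower and 16.9% higher. All 27 had a negative log2 fold change, with a median of -3.33 and a range of -6.57 to -1.89, beside a median of 0.008 over all genes. Treat versus Ctrl called 23 lower and 0 higher, beside 21.9% and 23% of all genes, and again all 27 were negative (median -3.82, range -6.74 to -2.06, all genes 0.023). Nothing is read from these counts, because the rule chose the members on the control library that enters both comparisons. Over all 93 members, tested or not, Ctrl5 held 74.7% to 100% of the control group's CPM of a member, with a median of 96.24%.

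Without Ctrl5 the picture of the same 27 members was different. DN versus Ctrl then called 6 lower and 1 higher, 18 were negative and 9 positive, and the median log2 fold change was -0.24 (range -2.77 to 2.14, all genes 0.014). The background among 19457 genes was 13.1% lower and 15% higher. Treat versus Ctrl called 10 lower and 1 higher, with a median of -0.31 (range -3.82 to 2.19, all genes 0.026) and a background of 20.3% lower and 21.2% higher. Of the 24 members called lower in DN with all libraries, 6 were still called lower, 18 were no longer called and 7 had turned positive. For Treat versus Ctrl, 10 of 23 were still called lower, 13 were not called and 3 had turned positive. The fold change was smaller in size for 27 of 27 members in both comparisons. Because the members were chosen as highest in Ctrl5, this shift follows from the choice, and nothing is read from it.

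With Ctrl4 left out as well, calls went evenly both ways. DN versus Ctrl called 5 members higher and 5 lower (median 0.11, all genes 0.036), beside 14.7% and 12% of 19769 genes. Treat versus Ctrl called 5 higher and 6 lower (median 0.22, all genes 0.047), beside 21% and 19%. Of the 5 called higher in each comparison, 2 had no count in the 4 remaining controls, so their fitted fold changes depend on the prior count and are not bounds. The other 3 had log2 fold changes of 0.8 to 3.57 in DN and 0.98 to 3.79 in Treat. The calls of higher members thus rested on which control libraries were kept.

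**Figure D4:**
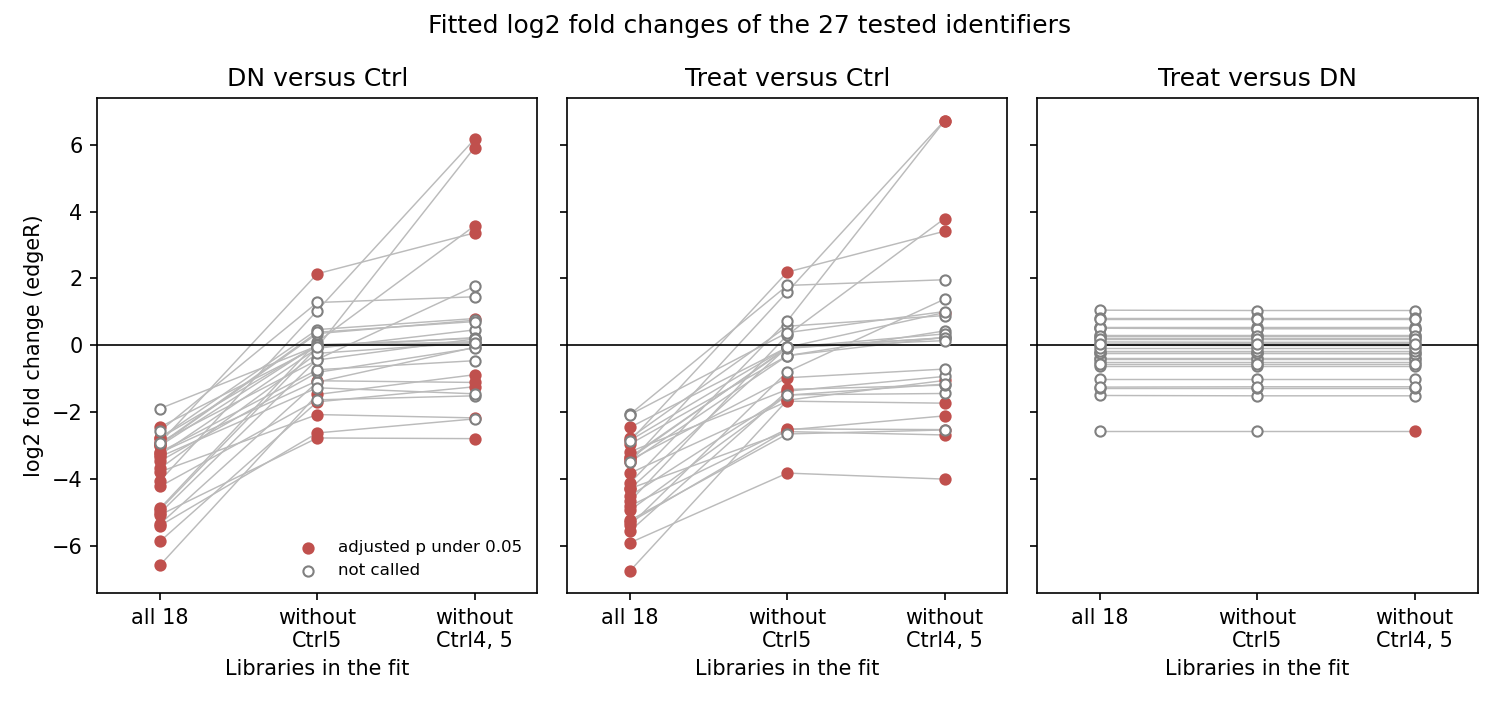
Fitted log2 fold changes (edgeR, vertical axis) of the 27 tested members in the 3 comparisons, with all 18 libraries, without Ctrl5 and without Ctrl4 and Ctrl5. Each line is 1 member, and filled points have an adjusted p under 0.05. In both comparisons with Ctrl all 27 start below 0 and spread to both sides of it, while the values of Treat versus DN move by at most 0.01 and 1 point becomes filled.

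Alb was lower in DN and in Treat than in Ctrl with and without the libraries in doubt. Its levels were 21.67, 15.65, 16.75, 73.35, 5895 and 22.38 CPM in Ctrl1 to Ctrl6. The lowest, median and highest were 8.052, 10.42 and 13.06 CPM in DN and 2.386, 10.93 and 13.16 CPM in Treat. No control overlapped a DN or Treat library. The log2 fold change in DN was -6.57 (SE 1.47, adjusted p = 0.00237 by edgeR's quasi-likelihood test) with all libraries, and this value describes the choice of members. Without Ctrl5 it was -1.47 (SE 0.39, adjusted p = 0.0099, with 0.000746 to 0.0461 over its alternatives), and without Ctrl4 as well it was -0.88 (SE 0.31, adjusted p = 0.0461).

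In Treat versus Ctrl the corresponding log2 fold changes of Alb were -6.74 (SE 1.48), -1.64 (SE 0.39) and -1.05 (SE 0.31). The adjusted p by the same edgeR test was 0.00322 without Ctrl5 (9.59e-05 to 0.0136 over its alternatives) and 0.0136 without both. In the 4 controls beside Ctrl4 and Ctrl5 the mean was 19.11 ± 3.403 CPM (n = 4), against 10.39 ± 2.022 in DN and 9.954 ± 3.977 in Treat (n = 6 each). Alb was thus lower in both groups without those libraries, by a difference much smaller than the one fitted with Ctrl5. Treat and DN overlapped, and no difference between them was called (log2 fold change -0.17, SE 1.2, adjusted p = 0.961).

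ENSMUSG00000028011 was the other member named by smallest adjusted p among those called lower in DN without Ctrl5. Its levels were 0.4492, 1.708, 0.9149, 2.736, 129.9 and 0.5272 CPM in Ctrl1 to Ctrl6. In DN they ran from 0.1394 over a median of 0.3883 to 0.6022 CPM, and in Treat from 0.2031 over 0.5573 to 0.6753 CPM. Controls 1 and 6 lay within the DN range, while Ctrl2, Ctrl3 and Ctrl4 lay above it. The log2 fold change in DN was -5.86 (SE 1.33) with all libraries and -1.69 (SE 0.44, adjusted p = 0.00947 by edgeR's quasi-likelihood test) without Ctrl5. Over its alternatives without Ctrl5 the adjusted p ran from 0.00315 to 0.0542, and voom with quality weights, which gave -1.13 and the highest of these, lost the call. The edgeR value was -1.24 (adjusted p = 0.0383) without Ctrl4 too.

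In Treat versus Ctrl, ENSMUSG00000074882 and ENSMUSG00000092008 had small adjusted p-values among the members called lower without Ctrl5. ENSMUSG00000074882 had 2.35, 1.491, 1.302, 0.8741, 35.19 and 2.607 CPM in Ctrl1 to Ctrl6. Its lowest, median and highest levels were 0.5773, 0.6698 and 1.001 CPM in DN and 0, 0.08122 and 0.4083 CPM in Treat. No Treat library reached the lowest DN library, and Treat1, Treat3 and Treat5 had no count. Unlike most members it was not raised in Ctrl4, which was the lowest of its controls. The log2 fold change in Treat versus Ctrl was -5.9 (SE 1.06) with all libraries and -3.82 (SE 0.63, adjusted p = 0.000169 by edgeR's quasi-likelihood test, 1.93e-10 to 0.00167 over alternatives) without Ctrl5. The Treat libraries held 0 to 9 counts of it, so the size of this fold change depends on few counts.

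ENSMUSG00000092008 had 1.555, 1.615, 2.006, 1.558, 37.23 and 1.845 CPM in Ctrl1 to Ctrl6. Its lowest, median and highest levels were 0.5705, 0.6675 and 1.588 CPM in DN and 0.3881, 0.5173 and 0.8196 CPM in Treat. Every control lay above every Treat library, and DN1, at 1.588 CPM, was the single DN library within the control range. Its log2 fold change in Treat versus Ctrl was -3.82 (SE 0.82) with all libraries and -1.67 (SE 0.29, adjusted p = 0.000285 by edgeR's quasi-likelihood test, 2.79e-06 to 0.00304 over alternatives) without Ctrl5. Here too Ctrl4 was not above the other controls. Without Ctrl5 the identifier was also called lower in DN versus Ctrl (-1.06, SE 0.28, adjusted p = 0.0102 by the same test). Treat versus DN was not called in that fit (-0.61, SE 0.28, adjusted p = 0.305).

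ENSMUSG00000027249 changed its sign with Ctrl5. It had 0, 0.2174, 0.07038, 0.6461, 35.19 and 0 CPM in Ctrl1 to Ctrl6, against 0.5097, 0.7939 and 0.9826 CPM (lowest, median and highest) in DN and 0.4976, 0.8304 and 1.225 CPM in Treat. Ctrl1, Ctrl2, Ctrl3 and Ctrl6 lay below every DN and Treat library, Ctrl4 lay within their range and Ctrl5 far above it. The log2 fold change in DN was -2.91 (SE 1.23, adjusted p = 0.0788 by edgeR's quasi-likelihood test) with all libraries and 2.14 (SE 0.63, adjusted p = 0.0182, 0.000349 to 0.0492 over alternatives) without Ctrl5. In Treat versus Ctrl it was -2.86 (SE 1.24, adjusted p = 0.0672) and 2.19 (SE 0.64, adjusted p = 0.0111, 2e-04 to 0.032 over alternatives). Without Ctrl4 as well it was 3.36 in DN and 3.41 in Treat. It was the member called higher without Ctrl5 in both comparisons.

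**Figure D5:**
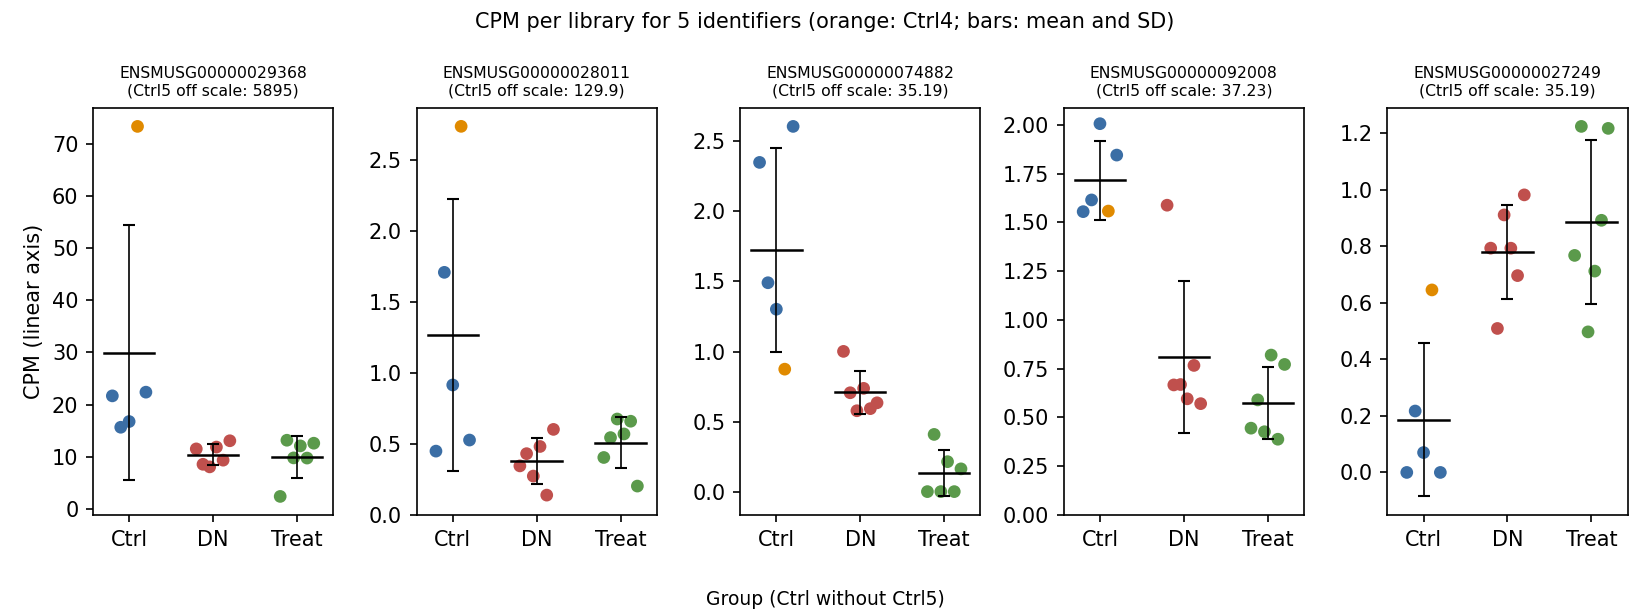
CPM (linear axes, 1 panel per identifier) in each library by group, with Ctrl5 left out and its value written above the panel. Lines and bars are the mean and SD of the libraries drawn, 5 Ctrl, 6 DN and 6 Treat, and the orange point is Ctrl4. Alb (ENSMUSG00000029368), ENSMUSG00000074882 and ENSMUSG00000092008 have lower mean levels in DN and in Treat than in the controls drawn. ENSMUSG00000027249 has higher DN and Treat levels than 4 of the 5 controls drawn.

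Treat versus DN contains no control library, and its members' log2 fold changes with and without Ctrl5 agreed to within 0.01. With all 18 libraries 0 of 27 members were called by edgeR's quasi-likelihood test, beside 0.536% of all genes called higher and 0.858% lower. At an unadjusted p under 0.05 there was 1, and DESeq2 called 1 higher among the 10 for which it gave an adjusted p. The median log2 fold change was -0.07 (range -2.56 to 1.05, all genes -0.005). Without Ctrl5 the count was also 0, with 6 at an unadjusted p under 0.05 and 1 of 29 called lower by DESeq2, beside 0.396% and 0.653% of all genes. Without both libraries 0 were higher and 1 lower, beside 0.622% and 0.87%.

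Ctrl5 nonetheless entered this comparison through the error. All 18 libraries share 1 estimate of spread per gene, and the median SE of the 27 members in Treat versus DN was 1.12 on the log2 scale with Ctrl5 and 0.53 without it. The SE was smaller without Ctrl5 for 27 of 27 members, while the median over all genes was 0.16 in both fits. The members were chosen on their height in Ctrl5, so a smaller SE and fitted spread without it follow from that choice. The members' median biological coefficient of variation (the fitted relative spread between animals) was 1.118 with Ctrl5 and 0.5347 without, and the value common to all genes was 0.2726 and 0.2703. For ENSMUSG00000074882 the log2 fold change of Treat versus DN was -2.56 in each fit. Its SE was 1.06 with all libraries and 0.62 without Ctrl5, and its adjusted p by edgeR's quasi-likelihood test was 0.236 and 0.0533 (0.0445 without Ctrl4 too). Over its alternatives the adjusted p without Ctrl5 ran from 0.000465 to 0.111.

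Of the 53 rows just below the rule's fold, 50 passed the filter on low counts. With all libraries, DN versus Ctrl called 0 of them higher and 21 lower. Without Ctrl5 it called 18 higher and 15 lower, beside the 15% and 13.1% given above. Treat versus Ctrl called 0 higher and 19 lower with all libraries, and 18 higher and 13 lower without Ctrl5, beside 21.2% and 20.3%. These rows were also chosen as highest in Ctrl5, so the counts with all libraries are descriptions. The shift between the counts with and without Ctrl5 follows from the same choice, and nothing is read from it.

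The total number of called genes without Ctrl5 lay within the range given by leaving out each other control. Leaving out Ctrl5 gave 5461 called genes for DN and 8069 for Treat, each against Ctrl, and leaving out each of the other controls gave 5326 to 6097 and 7909 to 8647. Outside the 93, 19201 genes were tested both ways in DN versus Ctrl. Of these, 5282 were called with and without Ctrl5, 896 only with it and 143 only without it. For each other control, 644 to 989 were called only with that control and 84 to 496 only without it. Leaving out any other control left 24 to 27 members called lower in DN and 24 to 28 in Treat, a stability that the choice of members on Ctrl5 fixes.

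The TMM factor (the scaling factor for library composition) and the voom quality weight did not set Ctrl5 apart. Only 27 of the 19233 genes they were taken over were members, so they could hardly register the set. The TMM factor of Ctrl5 was 0.9865 within a range of 0.8858 to 1.146. Its voom quality weight was 1.357, the 11th from the lowest in a range of 0.2748 to 1.751. The members' share of its counts lowers the log2 CPM of every other gene in it by 0.015. DESeq2 gave no p-value for 83 of the 93 members, which it flags as holding an outlying count, and for 215 genes in all. Without Ctrl5 it did so for 19 members and 89 genes. For the members this flag restates the choice of rows with 1 outlying library.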

How the data were processed

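RNA was isolated on RNeasy Mini Plus columns and 1.3 µg per sample entered a SMARTER mRNA-Seq library kit, per the labels' protocols. The authors deposited raw counts per gene without normalization. GRCm38 and mm10 are the builds in the submitters' processing notes. Aligner, counter, annotation and strandedness: not given in the sources used here.

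Columns were assigned by the library names in the labels. CPM used plain column totals. Fits used edgeR 4.0.16 in R 4.3.3, with filterByExpr, TMM factors, all libraries together with 1 coefficient per group, and the quasi-likelihood test with Benjamini-Hochberg adjustment over all genes. The SE of a log2 fold change came from the F statistic. The fits were tested on simulated data with the same spread for every gene and no outlying library, so that test does not cover rows like the members. Library totals of 22040987 to 35275498 put 3 counts at 0.085 to 0.136 CPM.

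The members and lists were chosen with earlier results of these data known. The rat gene table matched 0 of 55335 identifiers, so the liver and other tissue lists could not be tested. The rule for named genes took the highest members in Ctrl5, listed liver genes, and, without Ctrl5, the called members of smallest adjusted p. Where no symbol was at hand, at most 2 identifiers per direction and comparison were printed. No sequence is printed. Alternatives were DESeq2 1.42.0, voom with quality weights (limma 3.58.1), other filters and thresholds, only the libraries compared, a replicate block and each library left out. Fits without Ctrl4 and Ctrl5 together, and the alternatives repeated without Ctrl5, were added after seeing the data.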

Additional observations from a re-analysis of the deposited data

Results flagged for a closer look

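In 10 of 24 groups of values checked, 1 library stood apart by Dixon's gap test at the 95% level, which chance passes in about 1 in 20 groups. In 6 of them it was Ctrl5 among the controls, which the choice of members fixes. These were the summed CPM of the 93 identifiers (10020, next 195.3), Alb (5895, next 73.35), ENSMUSG00000028011 (129.9, next 2.736), ENSMUSG00000027249 (35.19, next 0.6461), ENSMUSG00000074882 (35.19, next 2.607) and ENSMUSG00000092008 (37.23, next 2.006).

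The other 4 were not fixed in that way. Among the 5 controls left without Ctrl5, Ctrl4 was apart for the summed CPM (195.3, next 48.12) and for Alb (73.35, next 22.38). Treat1 was the lowest Treat library for Alb (2.386 CPM, next 9.741). DN1 was the highest DN library for ENSMUSG00000092008 (1.588 CPM, next 0.7665).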

How the results depend on the processing

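With all libraries, the count of called members moved by over 1.5 times in 8 refits and stayed within that in 20 for DN versus Ctrl, and in 7 and 21 for Treat versus Ctrl. Several of these settings also changed how many members were tested. For DN versus Ctrl (24 of 27 tested), DESeq2 called 6 of 10, no filter 54 of 93, a stricter filter (6 or more libraries over 1 CPM) 8 of 8, only the 12 libraries compared 14 of 21, voom 2 of 27 and leaving out Ctrl4 and Ctrl5 10 of 27. Leaving out 1 library gave 7 to 27, with the lowest without Ctrl5. For Treat versus Ctrl (23 of 27), they were 3 of 10 (DESeq2), 59 of 93 (no filter), 8 of 8 (CPM filter), 5 of 27 (voom) and 11 of 27 (without both), and 11 to 28 with 1 library left out. Treat versus DN (0) had 1 with DESeq2, 1 without both and 0 to 0 with 1 left out. Without Ctrl5 the CPM filter gave 3 of 6 for DN and 3 of 6 for Treat versus Ctrl, and 1 library left out gave 7 to 10 and 9 to 11. Treat versus DN had 1 with DESeq2, 1 with voom and 0 to 1 with 1 library left out.

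Over all genes, Treat versus DN (268 called) had 841 with DESeq2, 119 with no filter, 116 with only 12 libraries, 737 with voom and 97 (without DN4) to 446 (without Treat1) with 1 library left out. The counts of DN versus Ctrl (6202) and Treat versus Ctrl (8629) ran from 5103 to 6936 and from 7909 to 8929 in those refits.

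The replicate block gave 4 of 27 called members for DN versus Ctrl, 7 of 27 for Treat versus Ctrl and 117 genes for Treat versus DN. Shared numbers did not pair the animals: 2 of 18 same-numbered pairs correlated above 0.1 (median -0.005232), and 2 of 18 libraries correlated best with their own number.

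ENSMUSG00000027249 turned positive in DN versus Ctrl with the replicate block (0.67), with voom (2.19), without Ctrl5 (2.14) and without both (3.36), and in Treat versus Ctrl likewise (0.65, 2.2, 2.19, 3.41). With 1 library left out its values ran from -3.17 to 2.14 and from -3.13 to 2.19. Alb in Treat versus DN was 0.04 without Treat1 and -0.27 at the other end of these refits. Against Ctrl with all libraries, Alb stayed negative but lost its call with voom (-2.36 in DN, -2.48 in Treat). The replicate block lost it too (-2.32 and -2.6). The cause of these changes was not tested beyond the libraries left out.

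Raising the minimum to 20 CPM left 54 of 93 rows, and the rule found 0, 1 or 2 rows in other libraries. The summed CPM in Ctrl5 (10018.7) was 11025.1 over 5 times, 9459.9 over 20 times, 10071.1 at 1 CPM, 9591.7 at 20 CPM and 10139.9 with TMM-scaled totals. DESeq2 with all libraries gave no adjusted p for the named members it flagged. Depth limits only members with a few counts outside Ctrl5.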
